A study of Mus musculus with 20 samples.

Results

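The glycolysis and hypoxia response genes are 39 genes listed by symbol, chosen with earlier results of these data known. They are 2 glucose transporters, the enzymes that take glucose to pyruvate, and genes of lactate and pyruvate handling. Genes of the oxygen-sensing pathway and other genes known to respond to low oxygen complete the list. All 39 were found among the 13283 gene symbols of the deposited table. Transcript levels were measured by bulk poly(A) RNA sequencing in male-labelled C57BL/6 mouse embryonic stem cells grown with serum, LIF and the 2i inhibitors. The cells differed in Trim71, which encodes an RNA-binding protein of stem cells. The groups were 4 libraries labelled Trim71-KO, set against 4 Trim71-cond libraries from cells with floxed (fl/fl) but intact Trim71. In a separate set of clones, 3 R595H/R595H clones (C14, C20, C24; 4 libraries) and 3 R595H/+ clones (C15, C21, C23; 4 libraries) carried the R595H change of TRIM71 on both or on 1 allele. They were set against 3 WT clones (C16, C5, C7; 4 libraries). Each clone is a line grown from its own cell, so clone differences and genotype are seen together in 3 clones a group. How the deletion was induced is not given in the sources used here. Nothing in the labels says that the conditional libraries came from separate lines, so their p-values measure the spread between these libraries, which may be technical. The question put by the title is how far homozygous R595H and the deletion resemble each other.

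Glycolysis turns glucose into pyruvate in the cytosol, and lactate dehydrogenase turns pyruvate into lactate, which leaves the cell through monocarboxylate transporters. Mouse embryonic stem cells in culture use glycolysis heavily even with oxygen present. When oxygen is scarce, the prolyl hydroxylases (EGLN proteins) no longer mark HIF-1 alpha for destruction, and the stabilised protein raises the transcription of most glycolytic genes and of genes for mitophagy, vessel growth, collagen hydroxylation and histone demethylation.

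Values are the authors' normalized levels on a log scale whose base, inferred to be 2, is not stated, so folds rest on that inference. Depth is unknown because no counts were used. In these bulk samples fewer cells of a kind and less RNA per cell cannot be told apart. Trim71 lay between 7.43 and 7.53 in Trim71-KO libraries and between 8.93 and 9.01 in Trim71-cond libraries, so it was lower but still well above the median gene (5.15 to 5.20 in all libraries). The sources used here do not say which exons the deletion removes, so reads from the rest of the transcript cannot be told apart from remaining intact transcript. Of 10 pluripotency markers 9 passed the minimum level, and the mean of the 10 was 8.58 to 8.68 in Trim71-KO libraries, against 8.44 to 8.55 in Trim71-cond libraries, with no overlap. The endoderm markers Sox17, Gata4 and Gata6 averaged between 0.0529 and 0.861. Some libraries stood apart. The Trim71-KO and Trim71-cond libraries of code 1A deviated from their group means in opposite directions (correlation of -0.89 over 9588 genes). The same-code correlations were -0.09 for 2B, -0.12 for 3A and 0.13 for 3B. The 2 libraries of clone C14 differed by an SD of 0.0331 over genes, against 0.148 for C15 and 0.151 for C16, and count as 1 clone. Titles date 1 library each of C14, C15 and C16 as 20/1 and all other clonal libraries as 5/2. C14 and C24 differed by 0.0918 to 0.0922, against 0.120 to 0.268 for the 61 other library pairs of different clones. The share of the back-transformed sum taken by Lars2 ran from 0.334% in R595H/R595H C20 to 13.2% in R595H/R595H C24. The mean of 4 Y-linked genes was 5.65 to 5.80 in Trim71-KO libraries, against 5.88 to 6.20 in Trim71-cond libraries, with no overlap. It was 3.72 to 4.36 in R595H/R595H libraries, 4.02 to 5.61 in R595H/+ libraries and 3.89 to 6.00 in WT libraries, although all carry the label male. The part of these marker and library differences in the results was not tested, beyond the values without them given below.

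The members were unevenly represented within each enzyme step. Levels per kb of the longest coding transcript (GENCODE M21) were compared on the log2 scale as a mean over the 20 libraries. Slc2a3, the high-affinity transporter GLUT3, was 14.4 times the level per kb of Slc2a1, the widely expressed GLUT1. Hexokinase 2 (Hk2) was 5.68 times hexokinase 1 (Hk1) per kb. Pfkp, the platelet type of phosphofructokinase, was 3.80 times the liver type Pfkl and 7.68 times the muscle type Pfkm per kb. Aldolase A (Aldoa) was 48.5 times Aldoc, and enolase 1 (Eno1) was 173 times the neuronal enolase Eno2 per kb. Eno2, at a mean of 2.89, lay under the minimum level used for testing (3.32), so the size of that ratio is uncertain. Lactate dehydrogenase A (Ldha) was 5.12 times Ldhb, and the transporter MCT1 (Slc16a1) was 6.54 times MCT4 (Slc16a3) per kb. Pdk1, a kinase that inhibits pyruvate dehydrogenase, was the lower of its pair at 0.519 times Pdk3. Ratios among the other pairs were closer, at 1.73 for Bnip3 to Bnip3l, 1.81 for Egln1 to Egln3 and 1.96 for P4ha1 to P4ha2. Each ratio stayed on one side of 1 in all 20 libraries. GENCODE M21 names 12 pseudogene or related copies for 6 members (Aldoa, Bnip3l, Gapdh, Ldha, Pgam1 and Pgk1), and how reads shared with them were counted is not given in the sources used here, so those levels are uncertain. Aldoa also has another gene record there.

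**Figure D1:**
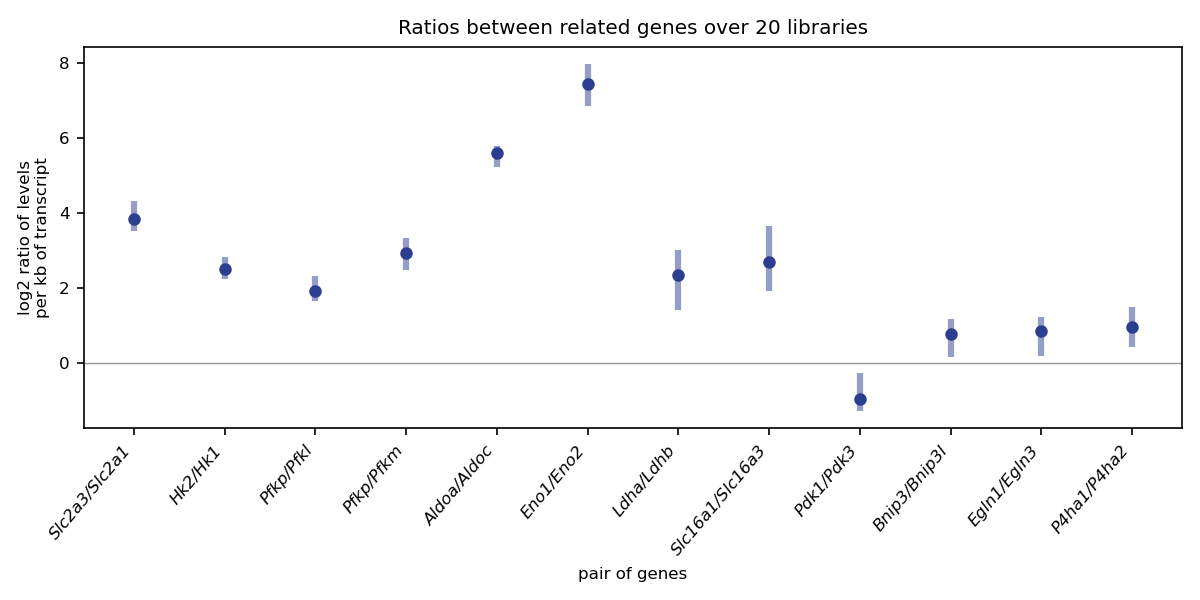
Log2 ratio of the levels per kb of transcript for 12 pairs of related genes; points are means of 20 libraries and bars run from the lowest to the highest library. Eno1 to Eno2 is the widest ratio (173 times), with Eno2 under the minimum level used for testing. Pdk1 to Pdk3 is the one below 0 (0.519 times).

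Deletion of Trim71 went with lower transcript levels of many glycolytic and hypoxia genes. Of 37 members tested in Trim71-KO against Trim71-cond, 17 fell, 0 rose and 20 did not pass the test (limma, Benjamini-Hochberg adjusted p under 0.05 over 9580 genes). Over all genes tested, 18.6% were called, and 9.37% were called lower in Trim71-KO. The called falls ran from 0.18 (Gapdh, a 1.13-fold decrease) to 0.44 (Kdm3a, a 1.36-fold decrease) on the log2 scale, so each was modest in size. Differences were below 0 for 32 of the 37, with a median of -0.24, beside 50.6% below 0 and a median of -0.00278 over all genes. The 4 Trim71-KO libraries lay wholly below the 4 Trim71-cond libraries for 9 members (Hk2, Pfkl, Aldoa, Eno1, Pkm, Ldha, Egln3, Bnip3l and Ero1l), against 10.2% of all genes. They lay wholly above for 0 members, against 1012 of 9580 genes. Without both 1A libraries 10 of the 17 calls stood, and 0 members were called that had not been before. The 7 whose call ended were Pfkfb3, Tpi1, Ldhb, Egln3, Bnip3, Bnip3l and Ero1l. In what follows the 4 libraries of a group are in the order 1A, 2B, 3A, 3B, and errors of differences are standard errors.

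**Figure D2:**
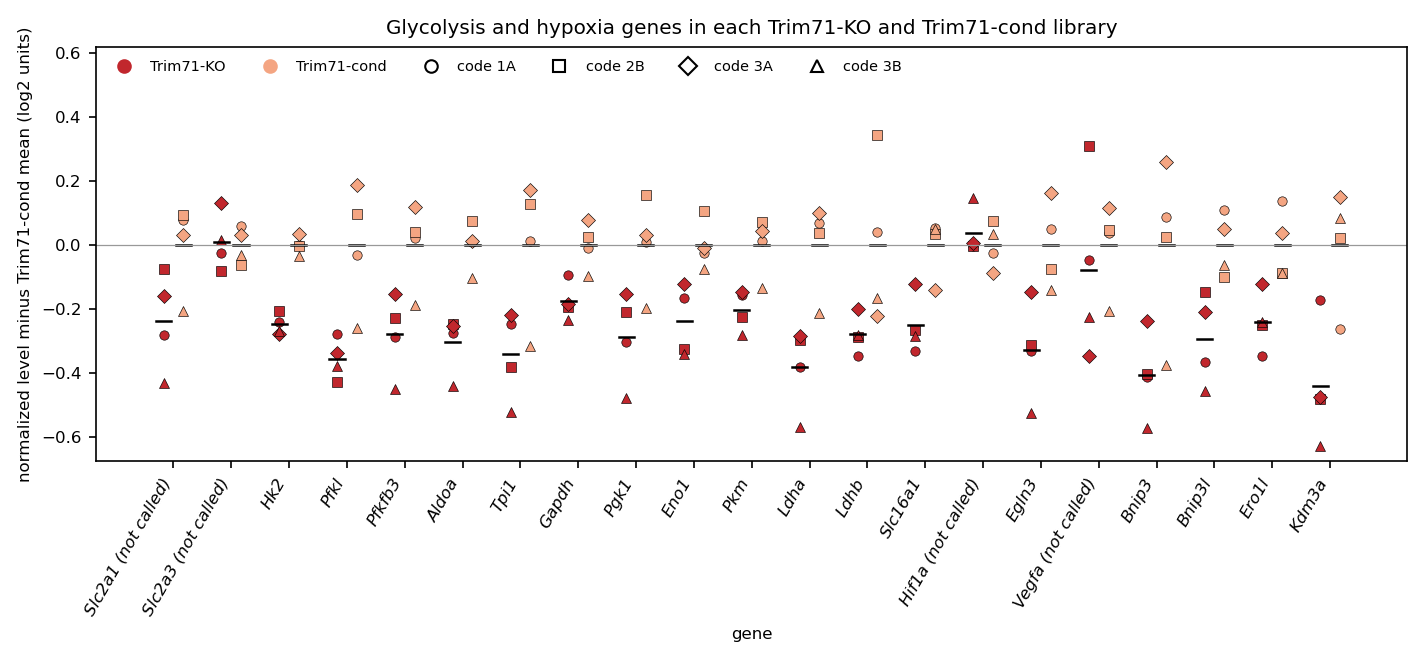
Normalized level of 21 members in each Trim71-KO (red) and Trim71-cond (orange) library, minus the Trim71-cond mean, in log2 units; symbols mark the replicate code and short lines the group means. The Trim71-KO mean is below the Trim71-cond mean for all 17 called members, and libraries of code 3B tend to sit low in both groups.

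Neither glucose transporter was called. Slc2a1 was at 6.98, 7.18, 7.10 and 6.82 in Trim71-KO libraries, against 7.33, 7.35, 7.29 and 7.05 in Trim71-cond libraries. Trim71-cond 3B lay below 2 of the Trim71-KO libraries, and the difference of -0.24 ± 0.083 just missed the threshold (limma adjusted p = 0.0514). It was called with the replicate block (adjusted p = 0.0443), with quantile normalization (0.0468), without Trim71-KO 2B (0.0280) and without Trim71-cond 3B (0.0218). Slc2a3 was at 11.18, 11.12, 11.34 and 11.22 in Trim71-KO libraries, against 11.27, 11.14, 11.24 and 11.17 in Trim71-cond libraries. These groups overlapped fully, with a difference of 0.01 and a 95% interval from -0.09 to 0.11.

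In upper glycolysis, which spends ATP to split glucose into triose phosphates, 5 of 11 tested members fell in Trim71-KO and 0 rose. Hk2, which traps glucose as glucose 6-phosphate, was at 9.39, 9.42, 9.34 and 9.36 in Trim71-KO libraries, against 9.63, 9.62, 9.66 and 9.59 in Trim71-cond libraries. The groups were tight and did not overlap, at a difference of -0.25 ± 0.047 (limma adjusted p = 0.00117). Pfkl, a subunit of the committed phosphofructokinase step, was at 8.03, 7.88, 7.97 and 7.93 in Trim71-KO libraries, against 8.28, 8.41, 8.50 and 8.05 in Trim71-cond libraries. The lowest Trim71-cond library stayed above every Trim71-KO library, and the difference was -0.35 ± 0.076 (adjusted p = 0.00307). Pfkfb3, which makes the phosphofructokinase activator fructose 2,6-bisphosphate, was at 4.59, 4.65, 4.72 and 4.43 in Trim71-KO libraries, against 4.90, 4.92, 5.00 and 4.69 in Trim71-cond libraries. Trim71-KO 3A lay just above Trim71-cond 3B, and the difference was -0.28 ± 0.092 (adjusted p = 0.0385).

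Aldoa, which cleaves fructose 1,6-bisphosphate, was at 10.25, 10.28, 10.27 and 10.09 in Trim71-KO libraries, against 10.54, 10.60, 10.54 and 10.42 in Trim71-cond libraries. All 4 Trim71-KO libraries lay below the lowest Trim71-cond library, at a difference of -0.30 ± 0.052 with the smallest adjusted p of the members (limma, 0.000491). Tpi1, which interconverts the triose phosphates, was at 9.17, 9.03, 9.20 and 8.89 in Trim71-KO libraries, against 9.43, 9.54, 9.59 and 9.10 in Trim71-cond libraries. Only Trim71-cond 3B fell within the Trim71-KO range, and the difference was -0.34 ± 0.089 (adjusted p = 0.0128). The Pfkfb3 call ended with the replicate block (0.0557), with the day block (0.0653) and when any of 6 libraries was left out (Trim71-KO 1A, 2B or 3B, Trim71-cond 1A, 2B or 3A; 0.0534 to 0.118). The Tpi1 call ended without Trim71-KO 2B (0.0536), Trim71-cond 1A (0.0642) or Trim71-cond 3A (0.0515).

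Among the other members of upper glycolysis, Hk1 averaged 6.64 ± 0.08 in Trim71-KO and 6.83 ± 0.19 in Trim71-cond (SD, n = 4 each), and Aldoc averaged 5.66 ± 0.18 in Trim71-KO and 5.82 ± 0.20 in Trim71-cond. Pfkp had one of the wider differences, -0.29 ± 0.13, with an adjusted p of 0.165 that became 0.000555 with the replicate block and 0.00906 without Trim71-cond 3B, but 0.366 with the day block. Hk1 was called without Trim71-cond 3B alone (0.0336). Gpi1, the glucose-6-phosphate isomerase, differed by -0.04 (interval -0.22 to 0.15), Pfkm by 0.02 (-0.15 to 0.19) and Pfkfb2 by -0.18 (-0.35 to 0.00415). Pfkfb4, at a mean of 2.78 over all libraries, was under the minimum and not tested.

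In lower glycolysis, which returns ATP and ends in pyruvate, 4 of 5 tested members fell in Trim71-KO. Gapdh, the dehydrogenase that opens this stage, was at 9.18, 9.08, 9.09 and 9.04 in Trim71-KO libraries, against 9.27, 9.30, 9.35 and 9.18 in Trim71-cond libraries. The groups met at about 9.18, and the difference of -0.18 ± 0.053 was the smallest that was called (limma adjusted p = 0.0259). Pgk1, the first ATP-yielding kinase, was at 8.56, 8.66, 8.71 and 8.39 in Trim71-KO libraries, against 8.87, 9.02, 8.90 and 8.67 in Trim71-cond libraries. One Trim71-KO library, 3A, passed the lowest Trim71-cond library, 3B, and the difference was -0.29 ± 0.074 (adjusted p = 0.0103). Eno1, the enolase that forms phosphoenolpyruvate, was at 9.85, 9.69, 9.89 and 9.67 in Trim71-KO libraries, against 9.99, 10.12, 10.01 and 9.94 in Trim71-cond libraries. Eno1 groups were apart by a small margin, with a difference of -0.24 ± 0.057 (adjusted p = 0.00633). Pkm, pyruvate kinase, was at 10.66, 10.59, 10.67 and 10.54 in Trim71-KO libraries, against 10.83, 10.89, 10.86 and 10.68 in Trim71-cond libraries. Pkm was also lower in every Trim71-KO library than in any Trim71-cond library, by -0.20 ± 0.050 (adjusted p = 0.00809). Pgam1, the mutase between Pgk1 and Eno1, averaged 5.01 ± 0.31 in Trim71-KO and 5.14 ± 0.20 in Trim71-cond (SD, n = 4 each) and was not called. Eno2 was under the minimum, at a mean of 2.89 over all libraries.

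Some of these lower-glycolysis calls rested on single libraries or settings. The call of Gapdh ended with plain eBayes (adjusted p = 0.0788) and without Trim71-KO 2B, 3A or 3B or Trim71-cond 2B or 3A (0.0539 to 0.0860). That of Pgk1 ended without Trim71-KO 3B (0.0540) or Trim71-cond 2B (0.0530), and that of Pkm with plain eBayes (0.0563).

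Lactate and pyruvate handling held 3 falls among 6 members, all 6 with differences below 0. Ldha, which makes lactate and regenerates the NAD that glycolysis needs, was at 9.81, 9.89, 9.91 and 9.62 in Trim71-KO libraries, against 10.26, 10.23, 10.29 and 9.98 in Trim71-cond libraries. No Trim71-KO library reached the lowest Trim71-cond library, and the difference was -0.38 ± 0.068, a 1.30-fold decrease (limma adjusted p = 0.000626). Ldhb, the other lactate dehydrogenase chain, was at 6.66, 6.72, 6.81 and 6.73 in Trim71-KO libraries, against 7.05, 7.35, 6.79 and 6.85 in Trim71-cond libraries. Trim71-cond 2B stood highest and 3A lay within the Trim71-KO range, so the call was near the threshold (-0.28 ± 0.095, adjusted p = 0.0444). Slc16a1, a lactate exporter, was at 8.87, 8.94, 9.08 and 8.92 in Trim71-KO libraries, against 9.25, 9.23, 9.06 and 9.25 in Trim71-cond libraries. Here 3 Trim71-cond libraries lay close together above all of Trim71-KO and 3A lay within it, at a difference of -0.25 ± 0.059 (adjusted p = 0.00580). The call of Ldhb ended with no filter (0.0562), equal library totals (0.0536) and plain eBayes (0.0783). It also ended without any 1 of 6 libraries (each Trim71-KO library, and Trim71-cond 1A or 2B; 0.0558 to 0.183). Without Trim71-cond 2B the Ldhb difference was -0.16.

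Slc16a3, Pdk1 and Pdk3 were not called, at -0.24 ± 0.13 (limma adjusted p = 0.217), -0.27 ± 0.11 (0.100) and -0.21 ± 0.082 (0.0750). Each passed in 1 alternative, Slc16a3 without Trim71-cond 3B (0.0412), Pdk1 without Trim71-KO 2B (0.0351) and Pdk3 without Trim71-KO 3A (0.0343).

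The oxygen-sensing genes did not move as a block. Hif1a, the subunit whose protein is stabilised when oxygen is low, was at 8.34, 8.34, 8.35 and 8.49 in Trim71-KO libraries, against 8.32, 8.41, 8.25 and 8.37 in Trim71-cond libraries. Its groups overlapped, with a difference of 0.04 and an interval from -0.08 to 0.16. Egln3, a prolyl hydroxylase that is itself a HIF target, was at 4.67, 4.69, 4.85 and 4.47 in Trim71-KO libraries, against 5.05, 4.92, 5.16 and 4.86 in Trim71-cond libraries. The highest Trim71-KO library fell just short of the lowest Trim71-cond library, and the difference was -0.33 ± 0.095 (limma adjusted p = 0.0204). The call ended without Trim71-KO 3B (0.0751) or Trim71-cond 3A (0.0707). Egln1, the main HIF prolyl hydroxylase, averaged 6.05 ± 0.09 in Trim71-KO and 6.26 ± 0.19 in Trim71-cond (SD, n = 4 each). It was not called (adjusted p = 0.109) unless Trim71-cond 3B was left out (0.0243).

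Of 10 other genes known as HIF targets, 4 fell in Trim71-KO and 0 rose. Kdm3a, a histone H3K9 demethylase, was at 8.84, 8.53, 8.54 and 8.39 in Trim71-KO libraries, against 8.75, 9.04, 9.17 and 9.10 in Trim71-cond libraries. Codes 2B, 3A and 3B parted clearly while the 1A libraries crossed, and the difference of -0.44 ± 0.090 was the largest of the members (limma adjusted p = 0.00305). Without both 1A libraries it was -0.61. Bnip3, a mitophagy receptor, was at 6.93, 6.94, 7.10 and 6.77 in Trim71-KO libraries, against 7.43, 7.37, 7.60 and 6.97 in Trim71-cond libraries. Trim71-cond 3B again fell within the Trim71-KO range, and the difference was -0.41 ± 0.10, a 1.32-fold decrease (adjusted p = 0.00927). Bnip3l, its relative NIX, was at 6.92, 7.14, 7.08 and 6.83 in Trim71-KO libraries, against 7.39, 7.19, 7.34 and 7.22 in Trim71-cond libraries. Those groups did not overlap, and the difference was -0.29 ± 0.077 (adjusted p = 0.0113). Ero1l, which oxidises protein disulphide isomerase in the endoplasmic reticulum, was at 7.21, 7.30, 7.43 and 7.31 in Trim71-KO libraries, against 7.69, 7.46, 7.59 and 7.46 in Trim71-cond libraries. Ero1l groups were also separate, at -0.24 ± 0.070 (adjusted p = 0.0222). Without both 1A libraries the adjusted p was 0.0532 for Bnip3, 0.0801 for Bnip3l and 0.222 for Ero1l. The Ero1l call also ended without Trim71-KO 1A (0.0702), Trim71-cond 1A (0.0807) or Trim71-cond 3A (0.0550).

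Vegfa, the vascular growth factor, was at 6.39, 6.74, 6.09 and 6.21 in Trim71-KO libraries, against 6.47, 6.48, 6.55 and 6.23 in Trim71-cond libraries. Trim71-KO 2B was the highest of the 8 and 3A the lowest, and the difference was -0.08 with an interval from -0.30 to 0.15. P4ha1 and P4ha2, collagen prolyl hydroxylases, differed by 0.07 (interval -0.18 to 0.33) and -0.04 (-0.28 to 0.20). Ankrd37 differed by -0.15 (limma adjusted p = 0.325) and Mxi1, a MYC antagonist, by 0.12 (0.296). Higd1a, a mitochondrial protein, averaged 5.75 ± 0.10 in Trim71-KO and 5.99 ± 0.18 in Trim71-cond (SD, n = 4 each), at an adjusted p of 0.0670.

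Promoter sequences were read for 37 of the 39 members from RefSeq (GRCm38.p6; Slc2a3 and Bnip3l have none in the table; Ero1l is Ero1a there). The motifs ACGTG and GCGTG, the core of the HIF binding element, were searched on both strands from 250 bases before to 50 after each start. They overlap the E-box CACGTG, which holds ACGTG on both strands. At least 1 match lay in 45 of 57 member promoters (78.9%), in 80.0% of the 25 promoters of members called in Trim71-KO and in 78.1% of the 32 of members not called. The share was 64.5% for the promoters of all tested genes and 43.8% for the whole table. CACGTG lay in 7 of the 57 (12.3%), against 10.8% for tested genes. The 3 called members with the most matches in a printable stretch, Bnip3 (5), Ldha (5) and Slc16a1 (4), and Pgk1 (2), whose promoter is a much-used example of HIF control, are shown as the 250 bases before the start, 5′ to 3′ on the gene's strand. Capitals mark ACGTG or GCGTG, or their reverse complements CACGT and CACGC, and a CACGTG counts as 2 overlapping matches. The table holds another Ldha promoter, downstream of the one shown, with 1 match before its start.
Bnip3, chr7:138909507-138909756, minus strand: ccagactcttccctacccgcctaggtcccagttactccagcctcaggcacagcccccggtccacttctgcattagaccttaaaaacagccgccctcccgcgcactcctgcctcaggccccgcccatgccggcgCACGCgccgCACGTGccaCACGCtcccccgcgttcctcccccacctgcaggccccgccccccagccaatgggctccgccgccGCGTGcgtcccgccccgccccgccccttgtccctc
Ldha, chr7:46845554-46845803, plus strand: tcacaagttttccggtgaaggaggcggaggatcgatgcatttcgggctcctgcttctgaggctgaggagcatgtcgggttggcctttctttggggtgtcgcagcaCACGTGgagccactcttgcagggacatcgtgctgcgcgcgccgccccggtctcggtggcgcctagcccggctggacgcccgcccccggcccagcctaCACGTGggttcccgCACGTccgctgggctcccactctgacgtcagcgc
Slc16a1, chr3:104638414-104638663, plus strand: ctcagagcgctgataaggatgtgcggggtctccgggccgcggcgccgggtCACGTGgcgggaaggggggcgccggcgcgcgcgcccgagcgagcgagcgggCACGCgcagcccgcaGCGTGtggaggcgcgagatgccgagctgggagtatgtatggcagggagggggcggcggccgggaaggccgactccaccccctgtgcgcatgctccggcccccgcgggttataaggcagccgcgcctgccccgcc
Pgk1, chrX:106186850-106187099, plus strand: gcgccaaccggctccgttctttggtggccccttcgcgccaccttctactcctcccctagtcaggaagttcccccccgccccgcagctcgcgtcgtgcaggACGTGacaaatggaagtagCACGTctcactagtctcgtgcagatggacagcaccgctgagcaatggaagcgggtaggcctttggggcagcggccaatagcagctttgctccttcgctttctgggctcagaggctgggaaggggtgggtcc
A match is a description of these letters and does not show binding. Called and not-called members hold the motif at about the same share.

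The members varied together from library to library. With each group's mean removed, the median correlation among 630 pairs of 36 members was 0.477 over 17 units (8 conditional libraries and 9 clones), which share library and scaling. Slc16a3 (0.94), Ldha (0.94), Gpi1 (0.94) and Bnip3 (0.93) followed the median of the other members most closely, and 20 of 36 were above 0.7. The matching share over all genes was not computed, so these values are not shown to be particular to the members. Hif1a (-0.53), Mxi1 (-0.36), Kdm3a (-0.17), Slc16a1 (0.03) and Pdk3 (0.17) did not follow it. The joint level, taken as the median over 36 members of the deviation from the mean of all libraries, was -0.09, -0.06, -0.02 and -0.20 in Trim71-KO libraries, against 0.19, 0.15, 0.19 and -0.05 in Trim71-cond libraries. Code 3B was the low one in both groups, so Trim71-cond 3B lay within the Trim71-KO range. Compared within a code, the members' median difference between Trim71-KO and Trim71-cond was -0.28 for 1A, -0.20 for 2B, -0.26 for 3A and -0.18 for 3B. Of the 37 tested members 21 were lower in Trim71-KO in all 4 codes, among them 14 of the 17 called. The share of all genes lower in all 4 codes was not computed. The calls were made on these same libraries, so the 14 of 17 is no separate evidence.

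**Figure D3:**
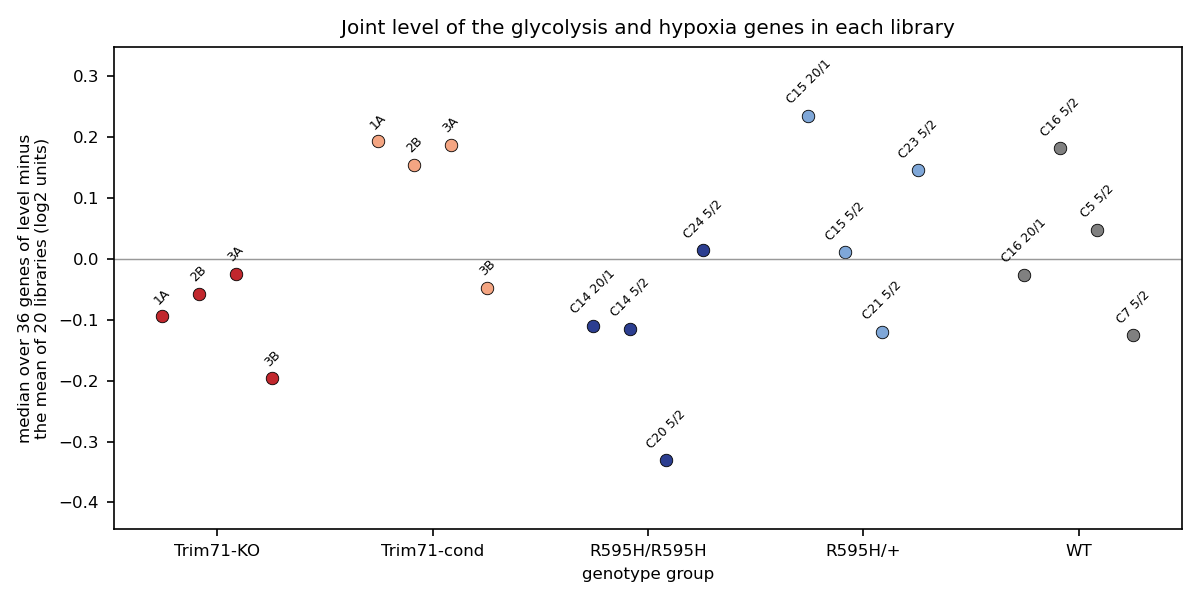
Median over 36 members of the level minus the mean of 20 libraries (log2 units), for each library by genotype group. Trim71-KO libraries lie between -0.20 and -0.02 and Trim71-cond libraries between -0.05 and 0.19, while R595H/R595H libraries run from -0.33 (C20) to 0.01 (C24) and overlap WT.

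Genes of neighbouring pathways were called in both directions in Trim71-KO, at shares not far from the 18.6% of all genes. Of 43 tested genes of other glucose metabolism 7 fell and 3 rose (23.3% called), with a median of -0.01. The 6 with the smallest p were Tkt (-0.29), which runs the pentose phosphate exchange, Pdp2 (-0.48), a phosphatase that activates pyruvate dehydrogenase, Pgm2 (-0.54), Rpe (0.27), the glycogen synthase Gys1 (-0.44) and Eno3 (-0.42). Among 31 tested genes of other hypoxia response 4 fell and 3 rose (22.6% called), with a median of -0.08. These were led by Plod2 (0.48), a collagen lysyl hydroxylase, Ak4 (-0.59), Fam162a (-0.39), the HIF hydroxylase Hif1an (-0.25), Epas1 (0.29), which encodes HIF-2 alpha, and Vhl (-0.23), which targets hydroxylated HIF for degradation. All limma adjusted p-values of the named genes were 0.0443 or smaller.

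The homozygous change was compared in R595H/R595H against WT clones. Of 36 tested members 0 were called, beside 3.42% of all genes (328 of 9587; 210 higher and 118 lower in R595H/R595H, or 72 and 85 with equal library totals). At an unadjusted limma p under 0.05 there were 11 members, all lower in R595H/R595H, and 10.4% of all genes were lower by that measure. The 11 became 5 without R595H/R595H C20 or without WT C16, 6 without R595H/R595H C14 or without WT C5, and 15 without R595H/R595H C24. Differences were below 0 for 26 of 36 (median -0.13), beside 50.7% of all genes, or 28 and 59.2% with equal library totals. The smallest adjusted p was 0.0619, for Higd1a. Its 3 R595H/R595H clones were at 5.86, 5.68 and 5.93 (C14, C20, C24), against 6.10, 6.16 and 6.16 in WT clones (C16, C5, C7), and did not overlap. Pfkp, the platelet phosphofructokinase, was at 9.95, 9.74 and 10.10 in R595H/R595H clones, against 10.33, 10.46 and 10.14 in WT clones, at -0.38 ± 0.11 (adjusted p = 0.0654). Hk1 was at 6.46, 6.36 and 6.48 in R595H/R595H clones, against 6.90, 6.76 and 6.74 in WT clones, at -0.37 ± 0.11 (0.0911). In all, 8 members had R595H/R595H clones wholly below WT clones (Hk1, Pfkp, Aldoc, Ldhb, Pdk3, Bnip3l, Higd1a and Mxi1), against 15.4% of all genes.

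Several members called lower in Trim71-KO had estimates near or above 0 here, with wide intervals. Ldha was at 9.79, 9.47 and 10.10 in R595H/R595H clones, against 10.11, 9.95 and 9.41 in WT clones, a difference of -0.04 with an interval from -0.43 to 0.36. Its clones spread widely in both groups, and within WT C16 alone the 5/2 library read 10.44 and the 20/1 library 9.78. From the 20/1 to the 5/2 library, the median of 36 members moved by 0.20 in WT C16. It moved by -0.18 in R595H/+ C15 and by -0.02 in R595H/R595H C14. Hk2 differed by 0.02 (interval -0.16 to 0.20), Slc16a1 by -0.02 (-0.17 to 0.12) and Gapdh by 0.11 (-0.13 to 0.34). Other members called lower in Trim71-KO lay about as far below 0 here, or further, though not called here in the main fit. Differences here and in Trim71-KO were -0.42 and -0.41 for Bnip3, -0.41 and -0.33 for Egln3, and -0.48 and -0.28 for Ldhb. They were -0.30 and -0.34 for Tpi1, -0.27 and -0.28 for Pfkfb3, and -0.26 and -0.29 for Bnip3l. Slc2a1 was at 7.09, 6.67 and 7.37 in R595H/R595H clones, against 7.28, 7.03 and 7.03 in WT clones, and Slc2a3 at 11.32, 11.29 and 11.40 in R595H/R595H clones, against 11.31, 11.25 and 11.11 in WT clones. Hif1a was at 8.40, 8.30 and 8.38 in R595H/R595H clones, against 8.29, 8.06 and 8.60 in WT clones, and Vegfa at 6.72, 6.40 and 7.00 in R595H/R595H clones, against 6.71, 6.71 and 6.35 in WT clones. All 4 overlapped between the groups. The clone C20, whose Lars2 share was the lowest, was the lowest R595H/R595H clone for all of these genes but Gapdh. Without C20 the members' median was -0.05, and without C24 it was -0.22. Of the related genes, Fam162a fell (-0.56, adjusted p = 0.0489) and the creatine transporter Slc6a8 rose (0.39, 0.0306). Pfkp was called without C24 (0.0303), with equal library totals (0.0333) and, like Ldhb (0.0417) and Higd1a (0.0482), without R595H/+ C21 (0.0354). Hk1 was called without R595H/+ C23 (0.0263). With the libraries of a clone kept apart and the clone as a random effect, Pfkp (0.0494) and Higd1a (0.0418) were called.

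**Figure D4:**
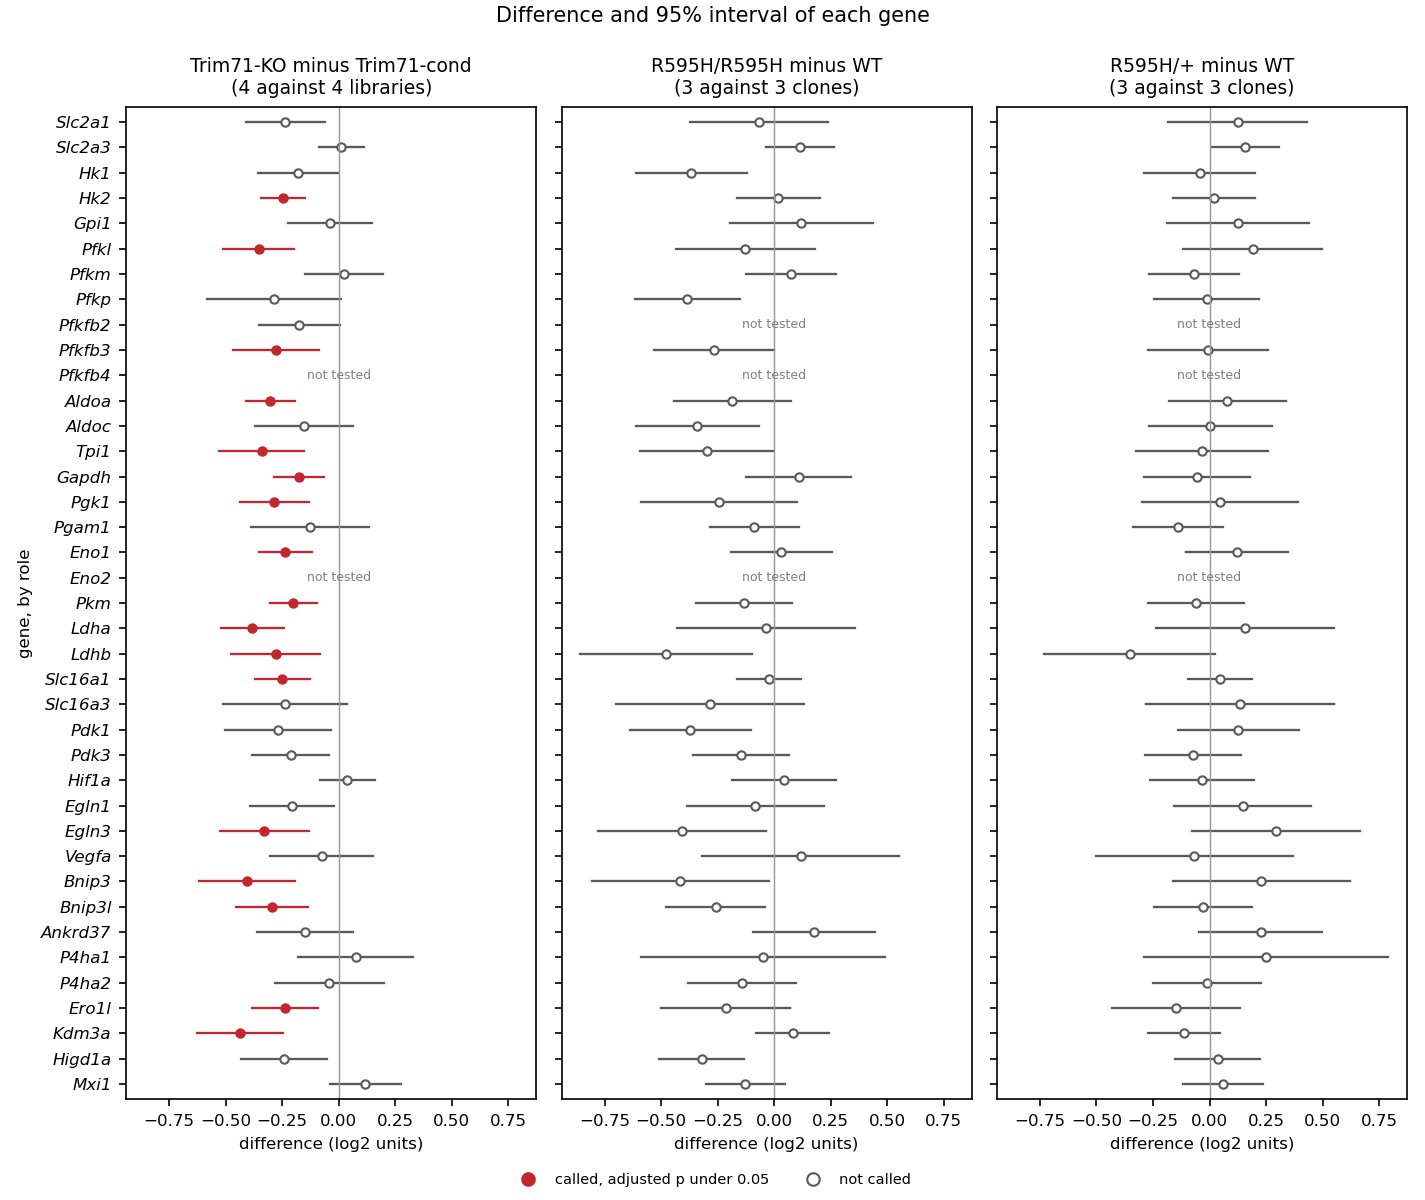
Difference in log2 units with its 95% interval for each member, in Trim71-KO minus Trim71-cond, R595H/R595H minus WT and R595H/+ minus WT; filled red points passed the adjusted p threshold. Only the first panel holds filled points (17), and the intervals of the clonal panels are wider for most genes.

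With a single changed allele, R595H/+ clones did not differ from WT clones in any member by the adjusted p. 0 of 36 members and 0.0% of genes were called by limma, and 1 member, Slc2a3, was higher in R595H/+ at an unadjusted p under 0.05, against 3.98% of all genes. Slc2a3 was at 11.41, 11.31 and 11.42 in R595H/+ clones (C15, C21, C23), against 11.31, 11.25 and 11.11 in WT clones, at 0.16 ± 0.070 (adjusted p = 0.641). Differences were below 0 for 16 of 36, beside 50.2% of all genes, with a members' median of 0.03. With 1 clone left out these ran from 6 and 0.11 (without R595H/+ C21) to 20 and -0.03 (without WT C7), and with 5/2 libraries only they were 20 and -0.02, so no direction can be given. Ldhb was the 1 member wholly lower in R595H/+ clones, at 7.41, 6.69 and 7.43 against 7.48, 7.62 and 7.50 in WT clones, beside 6.19% of all genes. Slc2a3 was the 1 member wholly higher, with C21 only narrowly above WT C16, beside 601 of 9587 genes. Egln3 was at 5.30, 4.91 and 5.18 in R595H/+ clones, against 4.95, 5.07 and 4.49 in WT clones (0.29 ± 0.17). Of the other preset genes, Slc2a1 was at 7.36, 7.04 and 7.31 in R595H/+ clones, Hif1a at 8.23, 8.40 and 8.22 and Vegfa at 6.65, 5.97 and 6.95, and each overlapped WT. C21, whose Lars2 share (0.498%) was the lowest after C20, was the lowest R595H/+ clone for Ldha, Egln3, Vegfa and Ldhb. C21 was the highest R595H/+ clone for Hif1a. Lars2 share and the joint level of members did not go together in every group. Trim71-cond 3B was lowest of its group in both (3.10% and -0.05). Trim71-KO 3A had the lowest share of its group (2.61%) and the highest joint level (-0.02). Whether the 2 are linked was not tested. The R595H/R595H and R595H/+ comparisons share the WT clones.

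Set directly against heterozygous clones, R595H/R595H clones gave the widest differences among clones. 0 of 36 members were called, beside 0.772% of all genes (74 of 9587; 55 higher and 19 lower, or 11 and 8 with equal library totals). At an unadjusted p under 0.05 there were 13 members, 12 of them lower in R595H/R595H, where 9.17% of all genes were lower. The 13 became 7 without R595H/R595H C20 and 8 without R595H/+ C15, and at most 17 (without C24) with 1 clone left out. Differences were below 0 for 30 of 36 (median -0.19), beside 50.5% of all genes, or 30 and 59.7% with equal library totals. The members' median moved about as far between the 2 libraries of a single clone, by -0.18 in R595H/+ C15 and 0.20 in WT C16. Egln3 was at 4.46, 4.05 and 4.78 in R595H/R595H clones, against 5.30, 4.91 and 5.18 in R595H/+ clones, a difference of -0.70 ± 0.17 (limma adjusted p = 0.0703). Bnip3 was at 6.57, 6.12 and 6.98 in R595H/R595H clones, against 7.44, 6.84 and 7.33 in R595H/+ clones (-0.64 ± 0.18, 0.0948). C24 overlapped R595H/+ C21 for Bnip3, whereas Egln3 groups were apart. Pdk1 was at 6.56, 6.38 and 6.70 in R595H/R595H clones, against 7.09, 6.80 and 7.26 in R595H/+ clones (-0.50 ± 0.12, 0.0717). With Higd1a, Hk1 and Mxi1 these made 5 members wholly lower in R595H/R595H clones, beside 13.0% of all genes; the others were Egln3 and Pdk1. Kdm3a was the 1 member wholly higher, at 9.14, 9.24 and 9.12 in R595H/R595H clones, against 9.06, 9.02 and 8.83 in R595H/+ clones (0.19 ± 0.075, 0.192). Over all genes, 1185 of 9587 were wholly higher. Without R595H/R595H C24, Egln3 (-0.88, 0.0209) and Bnip3 (-0.86, 0.0276) were called. Egln3 was also called with equal library totals (0.0428), and Higd1a with the clone as a random effect (0.0411). Without C20 the members' median was -0.06.

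**Figure D5:**
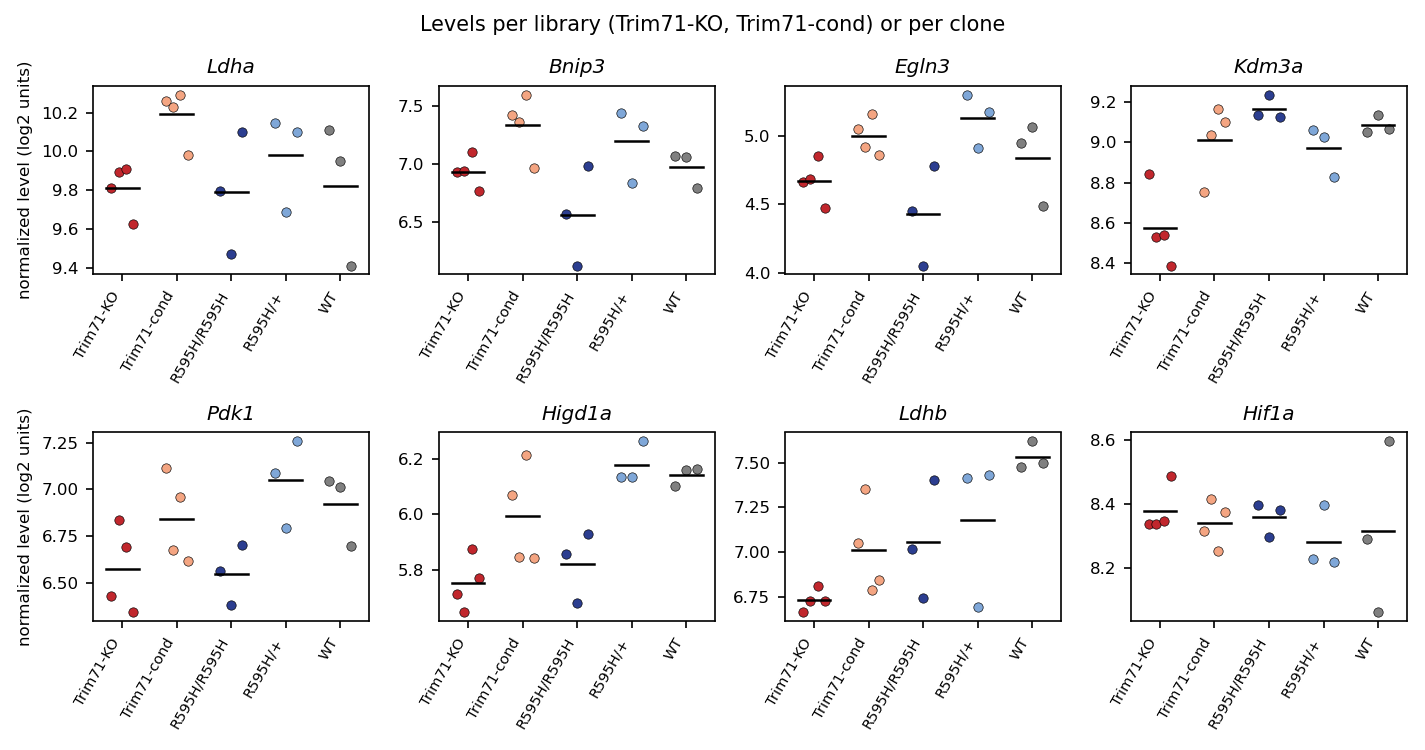
Normalized level (log2 units) of 8 members in each Trim71-KO and Trim71-cond library and each clone of the other groups; lines are group means. Ldha and Kdm3a have a lower mean in Trim71-KO libraries than Trim71-cond libraries do, and Hif1a overlaps throughout. Egln3 and Pdk1 are lower in all R595H/R595H clones than in R595H/+ clones, though neither was called in that comparison.

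Whether the deletion and the homozygous change differed was tested directly, by subtracting the effect of R595H/R595H (over WT) from that of Trim71-KO (over Trim71-cond), with all 5 groups fitted at once. Kdm3a was the 1 member of 36 called, beside 1.42% of genes (136 of 9585; 70 above and 66 below 0, or 70 and 32 with equal library totals). It had 9.14, 9.24 and 9.12 in R595H/R595H clones, against 9.05, 9.14 and 9.07 in WT clones, a difference of 0.08, where Trim71-KO minus Trim71-cond was -0.44. The effects differed by -0.52 ± 0.13 (limma adjusted p = 0.0333). That call ended with the replicate block (0.0658), equal library totals (0.0797), plain eBayes (0.0731) and C14 and C24 counted as 1 (0.0541). It also ended without Trim71-KO 2B, 3A or 3B, Trim71-cond 2B, 3A or 3B, R595H/R595H C14 or C20, or WT C16 or C7 (0.0619 to 0.0922), while its size ran from -0.70 to -0.46. For the other 35 members no difference between the effects passed, and intervals were wide. At an unadjusted limma p under 0.05 there were 6 of 36 members, 5 of them below 0, beside 1667 of 9585 genes. The 1 above 0 was Mxi1, at 0.25 (interval 0.02 to 0.47). For Ldha the difference was -0.35 (interval -0.89 to 0.19), for Hk2 -0.27 (-0.46 to -0.07; adjusted p = 0.134) and for Gapdh -0.28 (-0.53 to -0.04; 0.206). Estimates near 0 came for Bnip3 (0.01, interval -0.57 to 0.59), Pfkfb3 (-0.01, -0.33 to 0.31), Ero1l (-0.02, -0.33 to 0.28) and Bnip3l (-0.04, -0.30 to 0.23), all called lower in Trim71-KO. The systems also differ in starting cells and handling, which cannot be told apart from the kind of change. Of the related genes Pdp2 was called (-0.55, adjusted p = 0.0370).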

How the data were processed

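Bulk poly(A) RNA was sequenced in 20 libraries. The authors deposited 1 table of normalized values per gene symbol, inferred to be on a log2 scale and like regularized log values, from -0.65 to 18.0, which would understate changes of low genes. The submitters' processing notes name CASAVA 1.8, STAR and DESeq2. Their build, annotation, counting step and transformation method were not given in the sources used here. Deposited values went unchanged into limma 3.58.1 (R 4.3.3; lmFit, eBayes with trend and robust) over genes with a mean of at least 3.32 (log2 of 10), with Benjamini-Hochberg adjustment over all genes tested and calls at an adjusted p under 0.05. The conditional fit held 8 libraries and the clonal fit 9 clone means, since the libraries of 1 clone were averaged. The difference of effects was fitted over 17 values. The fits were also run on simulated data without shifts shared by the genes of a library, so that run cannot show how such shifts act here.

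In the conditional system the labels give libraries with the same code the same day, which pairs them. Codes 3A and 3B also share a day (day 3), so the day block holds them together. Their deviations from the group means correlated at -0.89, -0.09, -0.12 and 0.13 for codes 1A, 2B, 3A and 3B. The replicate block was an alternative. Others were no filter, quantile normalization, equal library totals, plain eBayes, a day block, 5/2 libraries only, the clone as a random effect, and each replicate left out. The fits without both 1A libraries, with C14 and C24 counted as 1, and without each replicate in the difference of effects were chosen after seeing the data. The members and lists were chosen with earlier results of these data known. Every member is accounted for. Values in every conditional library are given for called members and for Hif1a, Slc2a1, Slc2a3, Egln3 and Vegfa. Clonal values are mostly means of a clone's libraries, given for those 5, for Kdm3a and for some others. Up to 6 called genes by smallest p are named from each of 2 related lists. In the clonal comparisons other members are named by smallest p, non-overlap or their call in Trim71-KO, chosen after their values were seen. Lists of fibroblast, endoderm, mesoderm and neural markers had 2 of 8, 3 of 4, 1 of 3 and 3 of 4 genes in the table. Of these, 0, 0, 1 (Eomes) and 2 passed the minimum, and the mean of each list differed between libraries by less than 0.5. Lengths and positions are from GENCODE M21.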

Additional observations from a re-analysis of the deposited data

Results flagged for a closer look

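In 4 of 72 groups of 4 libraries looked at, 1 library lay far from the other 3, where chance gives about 1 in 20. The gap to the nearest library was 0.836 of the group's range for Gpi1 in Trim71-cond 3B, 0.848 for Aldoa in Trim71-KO 3B, 0.899 for Slc16a1 in Trim71-cond 3A and 0.936 for Hif1a in Trim71-KO 3B. Gpi1 and Aldoa were low in these libraries, as were most members in code 3B, and Hif1a was high. Slc16a1 was low in Trim71-cond 3A, in which most members were high. The Trim71-KO effect and the R595H/R595H effect differed for Kdm3a, by -0.52 on the log2 scale in a limma test of that difference.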

How the results depend on the processing

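The members' median difference in Trim71-KO stayed below 0 in each of the 15 alternatives, and no called member changed sign. The sign did change in at least 1 alternative for 6 members that were not called. The number of members called, 17, was 16 with no filter, 18 with quantile normalization, 16 with equal library totals, 14 with plain eBayes, 18 with the replicate block, 16 with the day block, 10 without both 1A libraries and 12 to 22 with 1 library left out. The calls of 7 members (Hk2, Pfkl, Aldoa, Eno1, Ldha, Slc16a1 and Kdm3a) stood in all 15. The number of genes called was 1291 to 1634 with 1 library left out and 1392 with the replicate block, against 1783. Apart from Slc2a1, Pfkp, Pfkfb3 and Kdm3a, given above, the replicate block changed no member's call.

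In R595H/R595H against WT, members called were 1 with equal library totals, 2 with the clone as a random effect and 0 to 3 with 1 clone left out (1 without C24, 3 without R595H/+ C21, 1 without R595H/+ C23). Genes called were 157 with equal library totals, 191 with 5/2 libraries only, 108 with C14 and C24 counted as 1, and 67 to 541 with 1 clone left out. In R595H/R595H against R595H/+, members called were 1 with equal library totals, 1 with the clone as a random effect and 0 to 2 with 1 clone left out. Genes called were 116 with no filter, 19 with equal library totals, 213 with the clone as a random effect, 18 with C14 and C24 counted as 1, and 7 to 80 with 1 clone left out. R595H/+ against WT had 0 in every setting.

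For the difference of effects, 0 members were called with equal library totals, plain eBayes, the replicate block, and C14 and C24 counted as 1, and 0 to 1 with 1 library or clone left out. Genes called were 67 with the replicate block, 83 with 5/2 libraries only, 74 with C14 and C24 counted as 1, 204 without both 1A libraries, and 40 to 225 with 1 left out.

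Of 3182 alternative values of single members 2931 kept direction and call, 55 lost a call and 23 gained one. The sign changed in 173, none of a called value, all from differences of 0.18 or less in size. Where a clone left out leaves 2 in a group, the spread is shared over groups. The cause of these changes was not tested. Depth is unknown, so no counting error could be given, and 3 clones a group limit what the clonal comparisons can show.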
